A study of Brassica napus with 33 samples.

Results

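The genes described here are 8 genes of oilseed rape (Brassica napus) that the study annotated as APS kinase and listed, within its set of sulphur metabolism genes, under N, Mg or S deprivation. They were chosen by measured values, namely the study's own fold changes and adjusted p-values at 10 days, which had to pass for 1 of the 6 elements withdrawn and for no other, unless in the other direction. They are 8 of the 101040 genes counted in each library. BnaA03g54400D and BnaC07g51290D were listed under N deprivation, BnaA06g25000D, BnaC03g48570D, BnaA03g38670D and BnaCnng47170D under Mg deprivation, and BnaA09g08410D and BnaC09g08710D under S deprivation. Because such a listing takes all 6 comparisons at 10 days into account, the values of the 8 genes in those comparisons, and any value set against the 10-day controls, are given as a description with no test. Only the comparisons at 22 days were not used for the choice.

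Root mRNA came from wild type plants of the cultivar Trezzor grown in hydroponics, first on a complete solution and then with 1 element withdrawn. Ca, K, Mg, N, P or S was absent for 10 days, and Cl, Co or Mn for 22 days. Each harvest had its own controls, kept on the complete solution, the conditions numbered 11 and each had 3 libraries, 33 in all. The study's methods describe each replicate as a pool of 2 plants and describe only the 10-day harvest. All groups share the genotype and the greenhouse, whose temperatures differ between the labels and the methods, and the 2 harvests differ in plant age as well as in the elements withdrawn, so that these cannot be told apart between harvests.

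APS (adenosine 5′-phosphosulphate) is the activated form in which plants first hold sulphate, and it is made from sulphate and ATP by ATP sulfurylase. APS kinase adds a phosphate to APS and yields PAPS, the sulphate donor that sulfotransferases use, among others in the synthesis of glucosinolates, the sulphur-rich defence compounds of the cabbage family. APS reductase takes APS the other way, to sulfite and on to cysteine, so that both enzymes draw on the same substrate. The study labels its genes for that second branch PAPS reductase, and this name is kept below.

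The libraries held from 10115284 to 22841765 read pairs counted on the strand of a gene at 10 days and from 11765941 to 22053289 at 22 days. The 8 genes had between 29 and 1650 counts in every library, all 8 passed the filter on low counts at both harvests, and at most 2 counts in any library lay on their opposite strand. Levels are given as CPM, the counts of a gene scaled to a fixed library size, after TMM normalization over the 33 libraries. Gene lengths were not used, so levels are compared between conditions within a gene and never between genes. In bulk root RNA, fewer cells of a type and less RNA per cell cannot be told apart. A gene annotated Root cap (BnaA03g11890D) stood at a mean of 0.75 CPM in the 10-day controls, at 6.48 under S deprivation, at 0.04 under Ca deprivation and between 0.33 and 1.96 in the other 10-day conditions. The photosystem I gene BnaA01g28200D, taken for green tissue, ranged over condition means from 0.51 CPM under S deprivation to 11.5 under K deprivation. The part of these shifts in the results below was not tested.

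Genes are called changed in a comparison where the p of edgeR's quasi-likelihood test, adjusted after Benjamini-Hochberg over all genes tested, did not exceed 0.05. Under N deprivation 5 of the 8 APS kinase genes were called lower and 0 higher, where 20.1% of all 56667 genes tested were called and 11.1% were called lower. Mg deprivation divided the genes, with 2 called higher and 3 lower, against a background of 3.58% of genes called, 2.34% higher and 1.24% lower. S deprivation gave 2 genes called higher and 0 lower, and 8.84% of all genes were called, 4.22% higher. Each of these 3 comparisons chose members, so nothing is read from the excess over the background.

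Among the elements under which no member was listed, Ca deprivation gave 2 genes called lower, with 26.5% of all genes called and 13.9% called lower. P deprivation gave 1 gene called lower, with 29.3% of all genes called and 14.3% called lower. K deprivation gave 0 calls among the 8, with 1.26% of all genes called. N was the only one of the 6 elements under which all 8 genes had a negative log2 fold change, with a median of −1.06 over the 8 and 0.01 over all genes tested. The medians over the 8 were −0.99 under Mg, −0.21 under P, −0.01 under S, 0.31 under K and −0.61 under Ca deprivation, and the median over all genes lay between −0.04 and 0.01 in these comparisons.

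**Figure D1:**
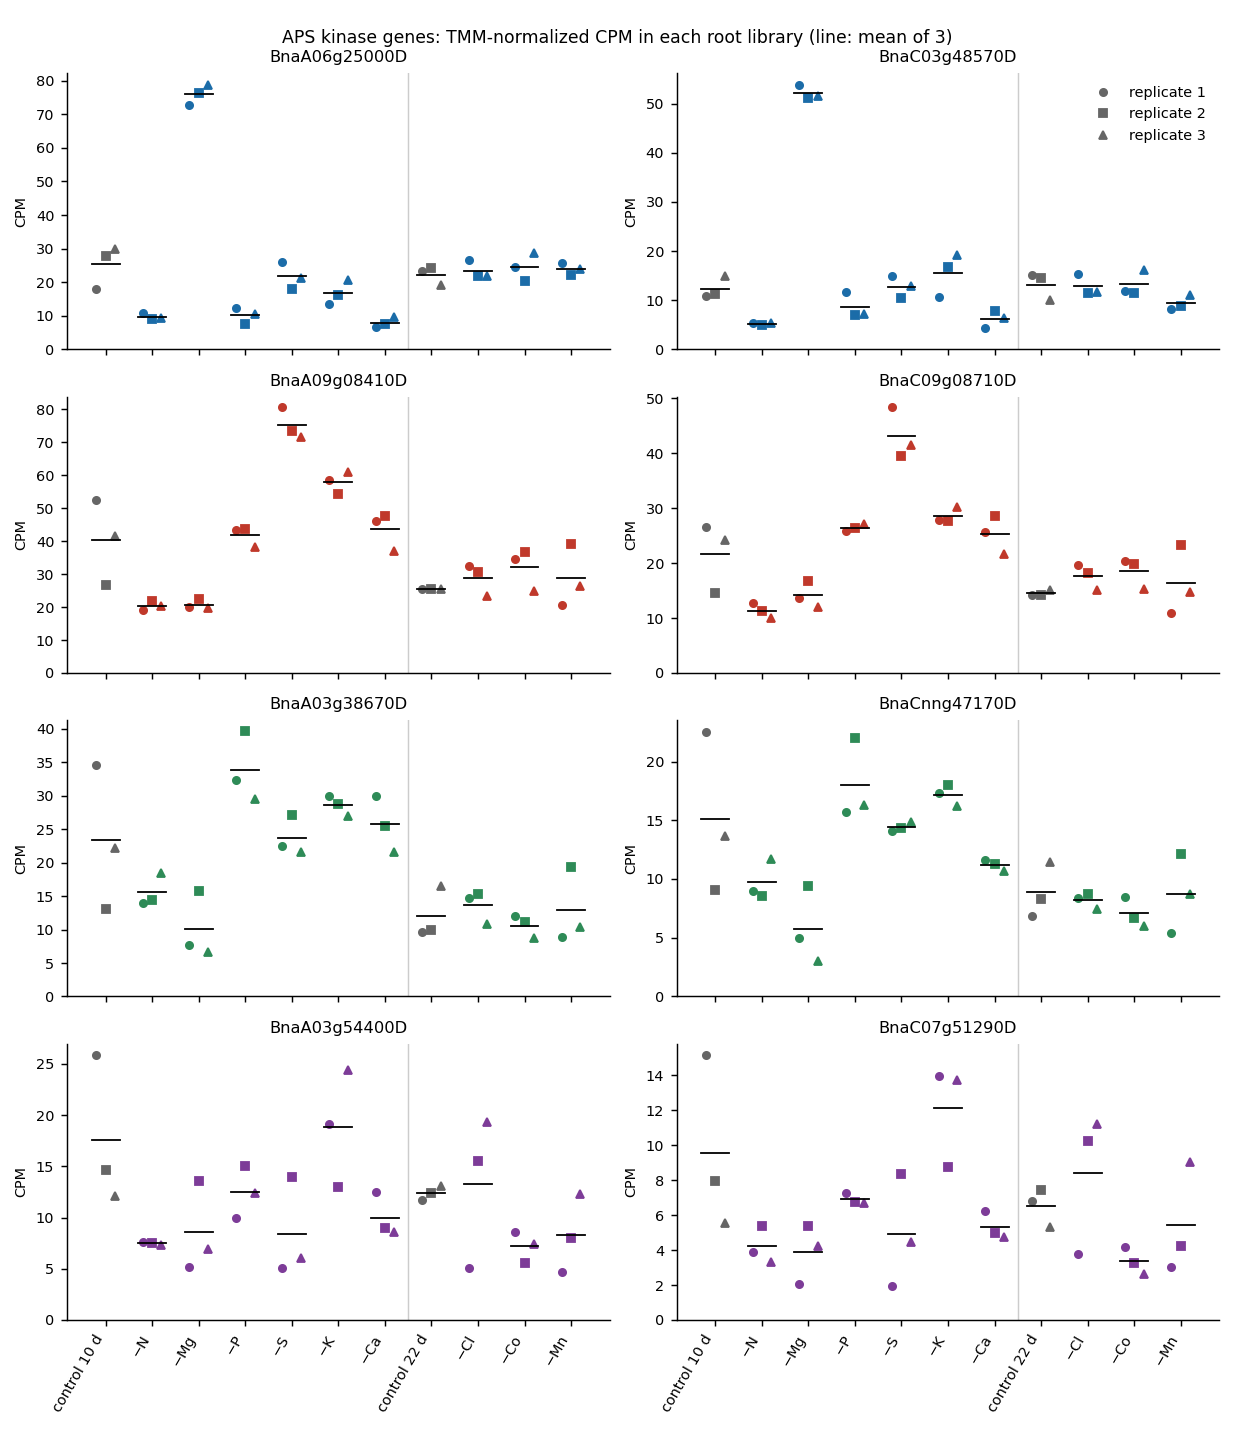
CPM of each APS kinase gene (vertical axis, linear from 0) in each of the 33 libraries, by condition, with the marker shape giving the replicate and the line the mean of 3 libraries. The pair in the top row stands highest under Mg deprivation, at 72.8 to 78.6 and 51.2 to 53.7 CPM, and the pair in the second row under S deprivation, at 71.8 to 80.8 and 39.5 to 48.4 CPM.

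The 8 genes fell into 4 pairs whose copies were each other's most alike member across the 33 libraries, and each pair held 1 gene of the A and 1 of the C subgenome by the letter in its ID. Pearson's r of log2 CPM within a pair was 0.90 for BnaA06g25000D and BnaC03g48570D, 0.92 for BnaA03g54400D and BnaC07g51290D, 0.94 for BnaA03g38670D and BnaCnng47170D, and 0.97 for BnaA09g08410D and BnaC09g08710D. Between pairs r ran from −0.63 to 0.76, and 12 of the 28 combinations of members were negative. All values of r here are descriptions over libraries that share conditions, harvests and depth. No pair was split between elements in the study's listing, which was made from 21 of these 33 libraries, so the listing and the values of r are not independent.

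The copies of a pair also moved together among replicates. After the mean of each condition was taken off, r over the 33 libraries was 0.72 to 0.92 within pairs and −0.52 to 0.78 between pairs. Over the 12 libraries of 22 days alone it was 0.87 or more in 3 pairs and 0.48 for BnaA06g25000D and BnaC03g48570D. The log2 ratio of the copies had an SD over the 33 libraries of 0.15 for the BnaA09g08410D pair, 0.24 for the BnaA03g38670D pair, 0.29 for the BnaA03g54400D pair and 0.38 for the BnaA06g25000D pair, where single copies had SDs from 0.58 to 0.88. Reads of near-identical copies can be split or discarded in counting, and only pairs of reads with 1 place of mapping entered the counts.

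**Figure D2:**
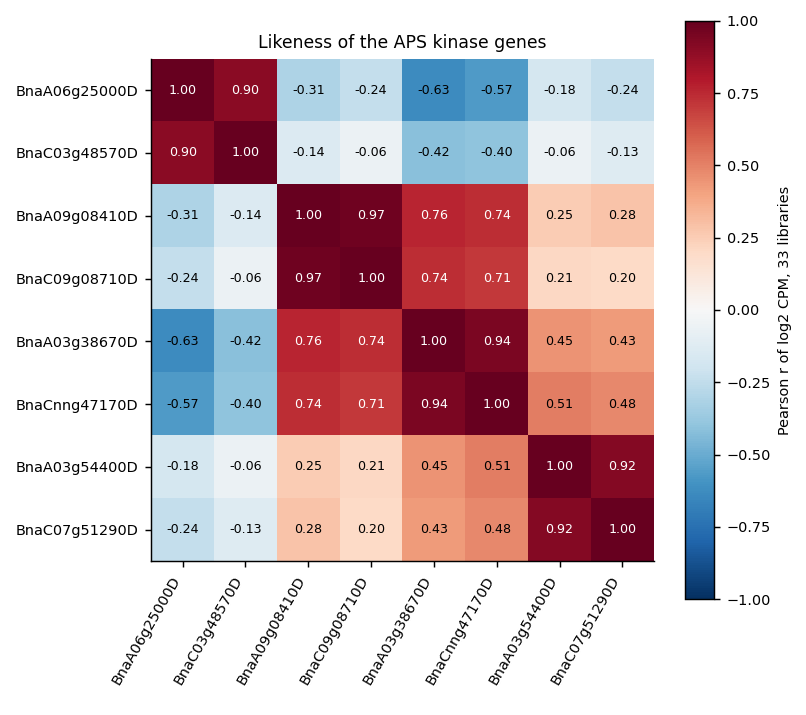
Pearson's r of log2 CPM over the 33 libraries between each 2 of the 8 APS kinase genes, with colour and printed value both giving r. The 4 dark blocks on the diagonal are the pairs, at 0.90 to 0.97, and BnaA06g25000D with BnaA03g38670D is the lowest value, at −0.63.

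BnaA06g25000D stood at 18.1, 28.0 and 30.03 CPM in the 10-day controls and at 72.8, 76.2 and 78.6 CPM under Mg deprivation. Its copy BnaC03g48570D was at 10.8, 11.2 and 14.9 CPM in the controls and at 53.7, 51.2 and 51.6 CPM under Mg deprivation. Every Mg-deprived library lay above every library of the other 10 conditions for both genes, and the 3 libraries were close to each other. The log2 fold changes were 1.57 (SE 0.21) and 2.08 (SE 0.23), the largest positive values of the 8 genes in any comparison, which is 2.98-fold and 4.21-fold. Both genes were called in the fit of all 10-day libraries. In a fit of only the Mg-deprived and control libraries BnaC03g48570D was called and BnaA06g25000D was not.

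The same pair was low without N. BnaA06g25000D had 10.7, 9.10 and 9.27 CPM and BnaC03g48570D 5.36, 5.01 and 5.30 CPM under N deprivation, all below their controls, for log2 fold changes of −1.38 (SE 0.21) and −1.23 (SE 0.24). Ca deprivation gave 6.83, 7.49 and 9.67 CPM for BnaA06g25000D and 4.44, 7.81 and 6.32 CPM for BnaC03g48570D, again with no overlap with the controls. On the log2 scale the changes were −1.65 (SE 0.22) and −0.97 (SE 0.24), and both genes were called lower.

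Under P deprivation both copies had negative log2 fold changes but differed in the call, and under K deprivation they differed in sign. These differences between the copies were not tested. Without P, BnaA06g25000D was at 12.2, 7.56 and 10.6 CPM, below all controls, and was the gene called lower, with a log2 fold change of −1.33 (SE 0.21). BnaC03g48570D was at 11.6, 6.98 and 7.28 CPM without P, and the first of these libraries overlapped the controls. Its log2 fold change was −0.52 (SE 0.24) and it was not called, but it was called without P replicate 1, at −0.80. Under K deprivation BnaA06g25000D had a log2 fold change of −0.60 (SE 0.21) and BnaC03g48570D one of 0.33 (SE 0.23), and neither was called. The mean log2 ratio of BnaA06g25000D to BnaC03g48570D was 1.01 in the 10-day controls and 0.13 under K deprivation, its lowest value over the 11 conditions. Under S deprivation both genes overlapped the controls, with log2 fold changes of −0.21 (SE 0.21) and 0.06 (SE 0.23).

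BnaA09g08410D was at 52.5, 26.8 and 41.6 CPM in the 10-day controls and at 80.8, 73.4 and 71.8 CPM under S deprivation. Its copy BnaC09g08710D was at 26.5, 14.5 and 24.1 CPM in the controls and at 48.4, 39.5 and 41.5 CPM under S deprivation. The S-deprived libraries were the highest of all 33 for both genes, and control replicate 2 was the lowest of its group. The log2 fold changes were 0.91 (SE 0.17) and 0.995 (SE 0.18), or 1.88-fold and 1.99-fold. Both were called in the fit of all 10-day libraries and neither was in a fit of only the S-deprived and control libraries, in which they were 0.91 and 0.996.

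N deprivation left this pair low, with BnaA09g08410D at 19.2, 21.7 and 20.5 CPM and BnaC09g08710D at 12.8, 11.3 and 10.1 CPM, all below the controls, for log2 fold changes of −0.97 (SE 0.17) and −0.93 (SE 0.18). Without Mg, BnaA09g08410D was at 19.9, 22.5 and 19.6 CPM, also below all controls, and was called lower at −0.96 (SE 0.17). In a fit of only the Mg-deprived and control libraries BnaA09g08410D was not called. BnaC09g08710D was at 13.7, 16.8 and 11.9 CPM without Mg, which overlapped control replicate 2. It was not called, at −0.62 (SE 0.18), but was called lower without control replicate 2, at −0.82, and without Mg replicate 2, at −0.77. So the pair stood on opposite sides of its controls under S and under N deprivation, with no overlap in either case.

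Under K deprivation BnaA09g08410D reached 58.5, 54.2 and 61.1 CPM and BnaC09g08710D 27.9, 27.7 and 30.2 CPM, above all controls. These 2 of the 8 genes were the ones with every K-deprived library on the same side of the control range, where 15.6% of all genes had ranges that did not overlap and 8.17% lay above. Neither gene was called, at 0.52 (SE 0.17) and 0.39 (SE 0.18) on the log2 scale, although BnaA09g08410D was called without control replicate 1, at 0.75. P and Ca deprivation gave log2 fold changes from 0.05 to 0.28 for this pair, with overlap of the ranges in each case.

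BnaA03g38670D was at 34.6, 13.1 and 22.3 CPM in the 10-day controls and at 7.71, 15.8 and 6.67 CPM under Mg deprivation. Its copy BnaCnng47170D was at 22.5, 9.04 and 13.7 CPM in the controls and at 4.95, 9.38 and 3.02 CPM under Mg deprivation. For both genes Mg replicate 2 overlapped control replicate 2, the lowest control, while the other 2 Mg-deprived libraries lay below all controls. The log2 fold changes were −1.20 (SE 0.30) and −1.35 (SE 0.31), and both genes were called lower. Without control replicate 1 they were −0.81 and −0.95, without Mg replicate 1 −1.03 and −1.24, and without Mg replicate 3 −0.97 and −1.05, and in each of these 3 fits neither gene was called. In a fit of only the Mg-deprived and control libraries neither was called either.

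The direction of this pair under Mg deprivation was thus the opposite of that of BnaA06g25000D and BnaC03g48570D in the same libraries. No other element gave a call for it. BnaA03g38670D was at 14.0, 14.4 and 18.4 CPM and BnaCnng47170D at 9.02, 8.52 and 11.7 CPM under N deprivation, with log2 fold changes of −0.57 (SE 0.30) and −0.62 (SE 0.31). P deprivation held the highest mean of the 11 conditions for both, at 33.8 ± 5.24 CPM (SD, n = 3) for BnaA03g38670D and 18.0 ± 3.48 CPM (SD, n = 3) for BnaCnng47170D. BnaA03g38670D had a log2 fold change of 0.53 (SE 0.29) under P deprivation and was called higher only without control replicate 1, at 0.92. Under S, K and Ca deprivation the log2 fold changes of the pair lay between −0.41 and 0.29.

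BnaA03g54400D was at 25.9, 14.6 and 12.1 CPM in the 10-day controls and at 7.66, 7.48 and 7.29 CPM under N deprivation. Its copy BnaC07g51290D was at 15.2, 7.94 and 5.55 CPM in the controls and at 3.91, 5.398 and 3.32 CPM under N deprivation. No N-deprived library reached the controls in either gene, while the controls themselves were spread by more than the N-deprived libraries. The log2 fold change of BnaA03g54400D was −1.22 (SE 0.38), which put it just inside the threshold, and that of BnaC07g51290D was −1.16 (SE 0.42), which left it just outside. BnaC07g51290D was thus the single member not called under its listed element. It was called with the likelihood ratio test at −1.16, with DESeq2 at −1.20 and without control replicate 3 at −1.44. The likelihood ratio test is the study's own, by which the gene was listed, so that call repeats the choice. BnaA03g54400D was not called without control replicate 1, at −0.83, nor without N replicate 1, 2 or 3, at −1.23, −1.22 and −1.20.

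In this pair single libraries stood apart in several conditions. Under S deprivation BnaA03g54400D was at 5.10, 14.0 and 6.01 CPM and BnaC07g51290D at 1.93, 8.37 and 4.44 CPM. Replicate 2 lay within the control range and replicates 1 and 3 below it, in both genes. The log2 fold changes were −1.08 (SE 0.38) and −0.99 (SE 0.42) and neither gene was called, but without S replicate 2 both were called lower, at −1.65 and −1.59. Under Mg deprivation the values were 5.17, 13.6 and 6.98 CPM for BnaA03g54400D and 2.05, 5.405 and 4.26 CPM for BnaC07g51290D. Mg replicate 2 was again the highest. The log2 fold changes of −1.01 (SE 0.38) and −1.26 (SE 0.42) were not called, while BnaA03g54400D was called lower without Mg replicate 2, at −1.54, and BnaC07g51290D without control replicate 3, at −1.54.

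K deprivation held the highest mean level of both genes, at 18.9 ± 5.71 CPM (SD, n = 3) for BnaA03g54400D and 12.1 ± 2.95 CPM (SD, n = 3) for BnaC07g51290D, within the range of the controls for both and with log2 fold changes of 0.11 (SE 0.37) and 0.35 (SE 0.40). Under Ca deprivation they were −0.80 (SE 0.38) and −0.83 (SE 0.42), and under P deprivation −0.49 (SE 0.37) and −0.47 (SE 0.41), with no call. The listing under N itself excluded genes called lower under another of the 6 elements.

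**Figure D3:**
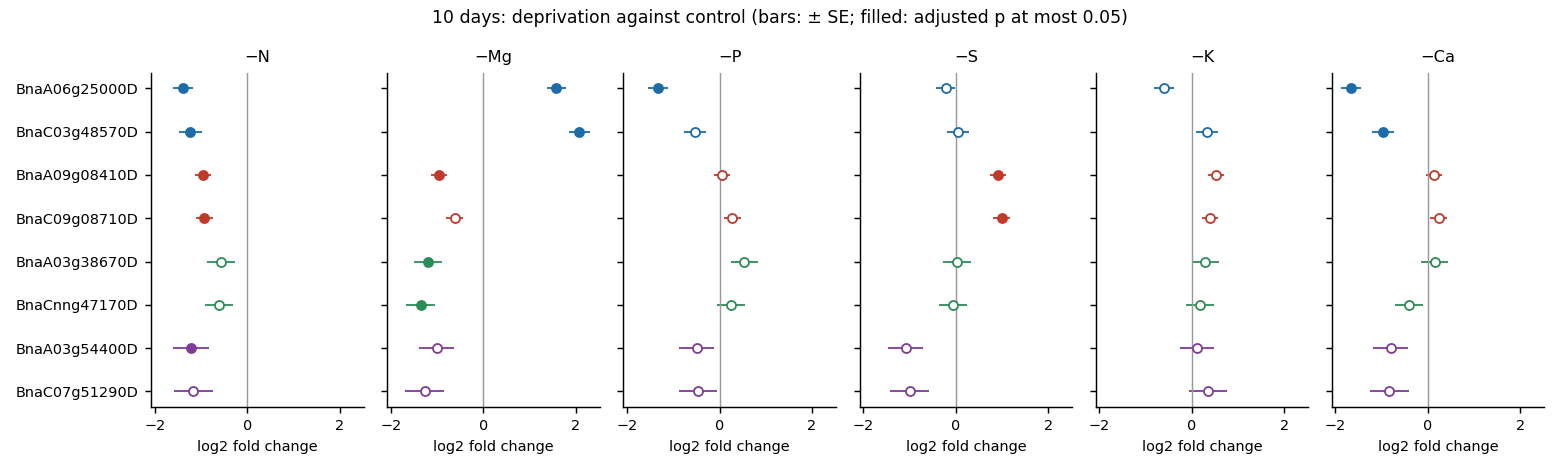
Log2 fold change against the 10-day control (horizontal axis, same scale in all panels) of each APS kinase gene under each of the 6 deprivations, with bars of ± SE and filled points for genes called. All 8 points lie left of 0 under N deprivation, and under Mg deprivation the pair at the top, at 1.57 and 2.08, lies on the other side of 0 from the other 6 genes.

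The scatter of the 10-day controls bore on all of these values. Control replicate 1 was the highest of the 3 controls in 6 of the 8 genes, the exceptions being BnaA06g25000D and BnaC03g48570D, where it was the lowest. Control replicate 2 was the lowest in 4 genes, both copies of the BnaA09g08410D and BnaA03g38670D pairs. Among the Mg-deprived libraries, replicate 2 was the highest in 6 of the 8 genes. Counted by ranges that did not overlap, 6 of the 8 genes lay below the controls under N deprivation, where 35.0% of all genes had ranges that did not overlap and 17.0% lay below. Mg deprivation had 2 genes above and 2 below, against 17.8% of all genes apart, 9.55% above and 8.30% below. S deprivation had 2 above, against 25.2% apart and 13.8% above. The P-deprived libraries had 1 gene below, against 40.4% apart and 19.1% below, and the Ca-deprived libraries 2 below, against 39.9% apart and 20.2% below.

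Ordered by mean level over the 11 conditions, the highest condition exceeded the lowest by 9.99-fold for BnaC03g48570D and 9.49-fold for BnaA06g25000D, and by 2.62-fold to 3.79-fold for the other 6 genes. Few steps of these orders were larger than the spread of the libraries. Of the 10 steps between neighbouring conditions in each order, 3 had ranges apart for BnaA09g08410D, 2 for BnaC09g08710D and BnaA06g25000D, 1 for BnaC03g48570D and BnaCnng47170D, and 0 for BnaA03g38670D, BnaA03g54400D and BnaC07g51290D. N deprivation was the lowest condition for BnaC03g48570D, BnaA09g08410D and BnaC09g08710D, Ca deprivation for BnaA06g25000D, Mg deprivation for BnaA03g38670D and BnaCnng47170D, and Co deprivation for BnaA03g54400D and BnaC07g51290D.

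The 22-day libraries addressed whether withdrawal of Cl, Co or Mn, elements that the choice of the genes did not involve, changed any copy. With the quasi-likelihood test of edgeR, 0 of the 8 genes were called under Cl, 0 under Co and 0 under Mn deprivation, and the background was 0% in each, since 0 of 54251 genes passed. At an unadjusted p of at most 0.05 the same test had 0, 0 and 1 of the 8 genes, and 2225, 5588 and 6326 of all genes. DESeq2 called 34, 52 and 182 genes and the likelihood ratio test of edgeR 33, 77 and 182, with 0 of the 8 among them in each.

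Under Mn deprivation BnaC03g48570D was at 8.32, 8.92 and 11.1 CPM against 15.0, 14.5 and 9.99 CPM in the 22-day controls. Control replicate 3 lay within the range of the Mn-deprived libraries. The log2 fold change was −0.46 (SE 0.21), with a Benjamini-Hochberg adjusted p of 0.424 in the quasi-likelihood test of edgeR, the lowest of the 24 adjusted values. Its copy BnaA06g25000D was at 25.6, 22.2 and 24.0 CPM without Mn and at 23.3, 24.3 and 19.3 CPM in the controls, a log2 fold change of 0.13 (SE 0.15).

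Co deprivation had 3 genes with ranges apart from the controls, where 21.9% of all genes were apart, 10.7% above and 11.2% below. BnaC07g51290D was at 4.17, 3.27 and 2.61 CPM against 6.80, 7.43 and 5.35 CPM, and BnaA03g54400D at 8.62, 5.59 and 7.42 CPM against 11.7, 12.4 and 13.1 CPM, both below. Their log2 fold changes were −0.95 (SE 0.44) and −0.76 (SE 0.42), with adjusted p of 0.486 and 0.514 in the quasi-likelihood test of edgeR, and so neither passed. BnaC09g08710D was at 20.4, 19.9 and 15.2 CPM against 14.2, 14.2 and 15.1 CPM, above, with a log2 fold change of 0.37 (SE 0.23) and an adjusted p of 0.548. BnaA09g08410D, its copy, was at 34.5, 36.8 and 25.0 CPM, around controls of 25.6, 25.4 and 25.6 CPM.

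Cl deprivation had 0 genes with ranges apart, where 9.19% of all genes were apart, and log2 fold changes from −0.13 (SE 0.28) for BnaCnng47170D to 0.34 (SE 0.42) for BnaC07g51290D. Mn deprivation likewise had 0 genes apart, where 20.6% of all genes were apart. Single libraries stood apart in several cases. BnaA03g54400D was at 5.03, 15.5 and 19.3 CPM under Cl deprivation and BnaC07g51290D at 3.77, 10.2 and 11.2 CPM, with replicate 1 the low library in both. Under Mn deprivation replicate 2 was the highest library in both copies of the BnaA03g38670D and BnaA09g08410D pairs, at 19.3, 12.1, 39.3 and 23.3 CPM for BnaA03g38670D, BnaCnng47170D, BnaA09g08410D and BnaC09g08710D. The SEs of the 24 log2 fold changes were 0.15 to 0.44.

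**Figure D4:**
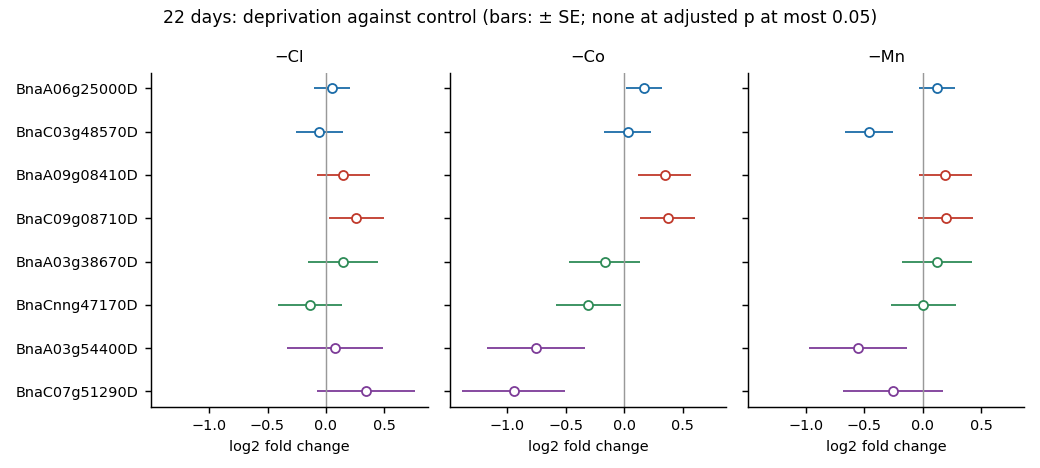
Log2 fold change against the 22-day control (horizontal axis, same scale in all panels) of each APS kinase gene under Cl, Co and Mn deprivation, with bars of ± SE. All points are open since no gene was called, and the values run from −0.95 for BnaC07g51290D under Co deprivation to 0.37 for BnaC09g08710D under Co deprivation.

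Between the controls of 22 and of 10 days 0 of the 8 genes were called, where 0.647% of all 57501 genes tested were called. The log2 fold change was negative in 7 of the 8, and BnaC03g48570D was the exception, at 0.10 (SE 0.23). BnaA09g08410D, at 25.6, 25.4 and 25.6 CPM at 22 days against 52.5, 26.8 and 41.6 CPM at 10 days, was the 1 gene with ranges apart, where 14.3% of all genes were apart and 6.68% lay below. Its log2 fold change was −0.66 (SE 0.20), and it was called lower without 10-day control replicate 2, at −0.88. BnaA03g38670D had the lowest log2 fold change, −0.96 (SE 0.31), and its 22-day control replicate 3, at 16.5 CPM, overlapped the 10-day range. The 10-day controls of BnaA09g08410D had an SD of 12.9 CPM and the 22-day controls one of 0.10 CPM (n = 3 each).

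Around the 8 genes stand those that make APS and those that take it the other way, which the study had likewise listed from the 10-day libraries. It listed the 3 ATP sulfurylase genes and 5 of the 7 PAPS reductase genes under N deprivation. Of these 5, BnaA03g45080D and BnaA09g20370D were also listed under S deprivation, as were the other 2 PAPS reductase genes, BnaC01g13420D and BnaC07g37060D. No gene of either group was listed under Mg deprivation. The counts and medians below thus restate that choice in part and nothing is read from them. Of all genes tested, 11.1% were called lower under N, 4.22% higher under S and 3.58% in either direction under Mg deprivation. The 3 ATP sulfurylase genes were all called lower under N deprivation, with a median log2 fold change of −1.59, and 0 of 3 were called under Mg or S deprivation, with medians of −0.27 and −0.04. BnaC01g22950D had the largest change of the 3 under N and Mg deprivation, at −1.62 (SE 0.54) and −1.03 (SE 0.53), and BnaA03g36860D under S deprivation, at −0.20 (SE 0.21). Of the 7 PAPS reductase genes 6 were called lower under N deprivation, with a median of −2.06, 5 were called higher under S deprivation, with a median of 0.92, and 0 were called under Mg deprivation, with a median of −0.50. The largest changes were −2.52 (SE 0.20) for BnaA09g20370D under N, and −1.07 (SE 0.35) and 1.31 (SE 0.34) for BnaC01g13420D under Mg and S deprivation.

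Under S deprivation the PAPS reductase genes were positive in 7 of 7, while 4 of the 8 APS kinase genes were positive, and 2 of those 4 were called. These comparisons share the 10-day controls, and the differences between groups were not tested.

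**Figure D5:**
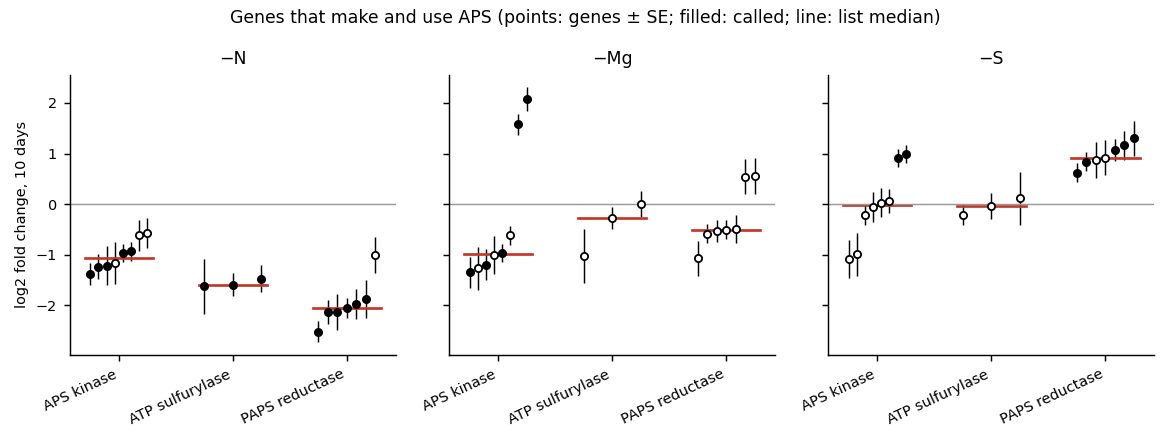
Log2 fold change at 10 days (vertical axis) of each gene of the APS kinase, ATP sulfurylase and PAPS reductase groups under N, Mg and S deprivation, with bars of ± SE, filled points for genes called and a line at the group median. The APS kinase points spread from −1.35 to 2.08 under Mg deprivation, the element under which 4 of them and no gene of the other groups had been listed.

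Of 38 sulphate transporter genes, S deprivation had 15 called higher and 1 lower, N deprivation 5 higher and 11 lower, and Mg deprivation 1 higher and 4 lower, with medians of 0.62, −0.20 and −0.08. Of all genes tested, 8.84%, 20.1% and 3.58% were called in these comparisons. The study drew its transport genes from those changed under at least 1 deprivation at 10 days, and listed several under S deprivation itself. Nothing is therefore read from these counts. BnaA07g33860D had the largest change under N deprivation, at −6.37 (SE 0.54), and BnaC02g00440D under Mg deprivation, at −4.13 (SE 0.53). Under S deprivation BnaC07g18000D had it, with 15 to 37 counts a library against 0 in each control. Of 3 cysteine synthase genes, which the study listed under N or K deprivation, 1 was called lower under N and 0 under Mg or S deprivation, with medians of −0.32, 0.09 and 0.02. The largest changes were −2.48 (SE 0.63) for BnaC07g27640D under N, −0.55 (SE 0.27) for BnaCnng62620D under Mg and −0.66 (SE 0.51) for BnaC07g27640D under S deprivation. The counts of BnaC07g27640D were low, at 0 to 3 a library under N, 4 to 5 under S deprivation and 4 to 10 in the controls.

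Sulfotransferases use the product of APS kinase, and of 3 genes with that domain 1 was called lower under N and 0 under Mg or S deprivation. Of all genes tested, 11.1% were called lower under N deprivation. BnaC02g01760D had the largest fitted change under N and Mg deprivation but at most 2 counts in any of those libraries and 0 in each control, so no fold is given. The medians of the 3 genes, into which its fitted value entered, were −2.68 under N, −0.71 under Mg and 0.19 under S deprivation. BnaC02g35160D had the largest change under S deprivation, at −4.12 (SE 1.58), and was not called. Its 10-day controls ran from 0.16 to 9.94 CPM and its S-deprived libraries from 0.14 to 0.39 CPM, so the ranges overlapped. A further 3 genes follow the APS kinases in the study's Mg listing with a blank annotation. It is likewise blank for several members, among them BnaA06g25000D and BnaA03g38670D. These 3 genes may therefore share the APS kinase annotation, but they were not counted as members. Their medians were −1.53 under Mg, 0.04 under N and −0.43 under S deprivation, and 1 was called, lower under Mg. BnaC01g00790D changed most under N, at −0.80 (SE 0.44), and S deprivation, at −0.60 (SE 0.43), and BnaA01g34620D under Mg, at −1.73 (SE 0.52), none of them called.

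Outside the family, 43312 genes with an average log2 CPM of at least 1 were compared with each member by Pearson's r of log2 CPM over the 33 libraries. For both genes of the BnaA09g08410D and BnaA03g38670D pairs no gene was as alike as the other copy. Their nearest genes were BnaC08g08150D, at r of 0.90 with both BnaA09g08410D and BnaC09g08710D, and BnaC04g41510D, at 0.91 with BnaA03g38670D and 0.87 with BnaCnng47170D. BnaCnng57400D was nearest to BnaC07g51290D, at 0.94, and to BnaA03g54400D, at 0.92. BnaC03g48570D was nearest to BnaC07g06590D, at 0.93, and BnaA06g25000D to BnaA04g03460D, at 0.92. These genes are not annotated in the sources used here, and r is a description over libraries that share conditions.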

How the data were processed

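Stranded poly(A) libraries of root RNA were sequenced in pairs. The authors trimmed the reads, aligned them with STAR to the Genoscope annotation of Brassica napus and deposited counts of read pairs per gene for each library, without normalization, leaving out pairs with several places of mapping. The column for the strand of the gene was used. Per library, 63.9% to 76.0% of read pairs were on genes, and the 4 rows that name no gene were left out of sizes and tests. Groups and replicate numbers came from the sample titles.

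Counts were analysed with edgeR 4.0.16 in R 4.3.3 (filterByExpr, TMM, quasi-likelihood test) with 1 coefficient per condition, over the 21 libraries of 10 days, the 12 of 22 days, or all 33 for the 2 controls. An adjusted p of at most 0.05 was used without a fold threshold. The study's methods give edgeR's likelihood ratio test, which was an alternative here, as were the Wald test of DESeq2 1.42.0, normalization by RLE or the upper quartile, the absence of a filter, a filter of CPM above 1 in 50% of libraries, other sets of libraries, a replicate block, counts without regard to strand, an adjusted p of at most 0.01 and each library left out. The SE is the absolute log2 fold change over the root of the F statistic. Log2 CPM for r had a prior count of 2. The code was tested on simulated data. Members and gene lists were chosen with earlier results of these data known. All 8 members are named; of each other list the gene with the largest absolute log2 fold change under N, Mg and S is named, and for each member the gene with the highest r. The p-values rest on the spread between the 3 libraries of a condition, pooled over all conditions in the fit. Sequences of the members were not used here.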

Additional observations from a re-analysis of the deposited data

How the results depend on the processing

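The 8 genes kept their counts of calls within 1.5 times, or at 0, under most alternatives. In fits of only the conditions compared, the count under Mg deprivation went from 5 to 1 and under S deprivation from 2 to 0, and all genes called went from 2026 to 34 and from 5011 to 71, and under N from 11362 to 6439. With an adjusted p of at most 0.01 the count under Mg deprivation was 3. With libraries left out in turn, the counts ranged from 4 to 6 under N, 3 to 7 under Mg, 1 to 2 under P, 2 to 4 under S and 0 to 1 under K deprivation, were 2 in all 6 fits under Ca and 0 in all under Cl, Co and Mn deprivation, and ranged from 0 to 1 between the controls. Over all genes the likelihood ratio test called 3251 genes under Mg, 1470 under K (715 with the quasi-likelihood test) and 886 between the controls, where DESeq2 called 845, the quasi-likelihood test 372 and the fit of the 6 control libraries 0.

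A shift by 1 SD of the replicates can hardly arise from leaving out 1 of 3 libraries, so its absence is not read as stability. None of the 888 log2 fold changes at 10 days or between the controls moved by that much under an alternative. Of them 16 changed sign, 15 with a library left out, all from values that were not called and of at most 0.47 in size. Of 384 at 22 days, 0 passed and the lowest adjusted p, 0.130, was that of BnaA03g54400D under Co deprivation in edgeR's quasi-likelihood test on only the conditions compared, where its other alternatives reached 0.724, and 25 changed sign, all from values of at most 0.26. Leaving out libraries gave, under Cl deprivation, −0.30 to 0.47 for BnaA03g54400D, −0.059 to 0.13 for BnaA06g25000D, −0.21 to 0.061 for BnaC03g48570D and −0.28 to 0.10 for BnaCnng47170D. Under Co deprivation it gave −0.31 to 0.14 for BnaA03g38670D and −0.15 to 0.13 for BnaC03g48570D. Under Mn deprivation it gave −0.29 to 0.43 for BnaA03g38670D, −0.10 to 0.39 for BnaA09g08410D, −0.81 to 0.033 for BnaC07g51290D, −0.15 to 0.42 for BnaC09g08710D and −0.31 to 0.26 for BnaCnng47170D. BnaCnng47170D under Mn deprivation, at 0.01, was also −0.0043 with RLE, −0.0051 with DESeq2 and −0.013 with all 33 libraries. The causes were not tested.

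The replicate numbers were not taken to pair the libraries, since 10 of 27 pairs of a deprived and a control library with the same number had r over 0.1 and 10 of 27 correlated best with their own number. The replicate block left each count of the 8 genes as it was and turned BnaA03g54400D under Cl deprivation from 0.08 to −0.035 and BnaCnng47170D under Mn deprivation to −0.014. Counts of 29 to 1650 per library and 3 libraries per condition limit the precision.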
